A study of Mus musculus with 4 samples.

Results

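The interferon response, RNA sensing and antigen presentation were followed through 39 genes in mouse embryonic fibroblasts undergoing reprogramming with an RNA virus vector. The genes were taken from a fixed list of symbols, chosen with earlier results of these data known. All 39 have an entry among the 26809 genes used. Of these, 37 reached 1 TPM (transcript abundance scaled for gene length and sequencing depth) in at least 1 library, as did 13509 genes in all. Oas3 and Ifi44 stayed below 1 TPM in every library, so they are in no count of genes called higher or lower, though they do enter the counts of reads and of promoter windows.

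All 4 groups were fibroblasts of C57BL/6 background sampled on day 5 and reprogrammed with SeVdp(KOSMaB), a replication-defective, persistent Sendai virus vector for the reprogramming factors. The groups were Osr2 cells with 10 µM SB431542, Osr2 cells without it, control cells with 10 µM SB431542 and control cells without it, with 1 library each. Osr2 is a zinc-finger transcription factor, the control transgene was the fluorescent protein Kusabira Orange, and SB431542 inhibits the TGF-β type I receptor kinases. All cells were under 2 µg/mL blasticidin S. Every group carried the vector, so no library here shows the genes in uninfected fibroblasts, and the response to the vector itself was not measured. With 1 library per group there is no replicate, no spread and no test, and intervals cover counting error only.

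Cytosolic receptors of the RIG-I family, such as the product of Ifih1, recognise viral RNA and signal through MAVS and IRF3. This switches on type I interferon genes, and Dhx58 encodes another protein of the same family. Secreted interferon then acts through its receptor and the JAK kinases on a complex that includes STAT2 and IRF9, which binds the interferon-stimulated response element (ISRE) and turns on the IFIT, OAS, Mx and ISG15 genes. IRF1 acts on related elements and on the genes of MHC class I antigen presentation, by which nucleated cells display viral peptides.

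The promoters with the most copies of the ISRE core are shown because this element is the one through which the pathway acts on its targets. Each run is the RefSeq window of build GRCm38.p6 from 250 bases before to 50 bases after the start of the gene, 5′ to 3′ on the strand of the gene. Capitals mark every match to the core, which is GAAA, any 2 bases and GAAA, on either strand. A match on the other strand reads TTTC, any 2 bases and TTTC, and overlapping matches run together. Isg15 (chr4:156200769-156201068, minus strand) holds 3 overlapping matches. Bst2 (chr8:71537423-71537722, minus strand), Gbp3 (chr3:142559794-142560093, plus strand) and Ifit1 (chr19:34640639-34640938, plus strand) hold 2 each.
Isg15: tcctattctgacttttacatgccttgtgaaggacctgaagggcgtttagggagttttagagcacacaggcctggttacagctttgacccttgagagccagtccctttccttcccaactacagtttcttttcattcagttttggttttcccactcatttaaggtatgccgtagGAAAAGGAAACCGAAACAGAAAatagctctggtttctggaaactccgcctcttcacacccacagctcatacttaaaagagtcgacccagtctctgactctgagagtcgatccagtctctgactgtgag
Bst2: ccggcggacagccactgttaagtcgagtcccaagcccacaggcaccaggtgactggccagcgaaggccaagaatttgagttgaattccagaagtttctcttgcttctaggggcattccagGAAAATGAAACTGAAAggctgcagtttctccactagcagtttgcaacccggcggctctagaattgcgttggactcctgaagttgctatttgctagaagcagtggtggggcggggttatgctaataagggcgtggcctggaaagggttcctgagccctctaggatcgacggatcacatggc
Gbp3: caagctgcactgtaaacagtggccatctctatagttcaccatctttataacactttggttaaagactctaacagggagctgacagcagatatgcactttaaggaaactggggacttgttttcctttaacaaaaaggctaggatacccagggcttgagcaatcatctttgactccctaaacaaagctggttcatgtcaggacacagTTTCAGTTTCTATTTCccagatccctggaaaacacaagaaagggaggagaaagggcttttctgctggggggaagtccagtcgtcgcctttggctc
Ifit1: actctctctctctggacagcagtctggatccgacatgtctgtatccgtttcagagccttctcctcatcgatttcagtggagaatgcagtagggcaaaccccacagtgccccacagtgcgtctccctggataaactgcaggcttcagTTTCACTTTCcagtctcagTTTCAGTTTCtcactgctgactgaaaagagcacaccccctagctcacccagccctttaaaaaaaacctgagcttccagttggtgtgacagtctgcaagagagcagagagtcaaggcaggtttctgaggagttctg
Ifit3, Ifit3b and Oas1a also hold 2 matches. A window was found for 31 of the 39 members, and 14 of these (45.2%) hold at least 1 match, against 3.59% of 10134 measured genes and 3.44% of 32851 windows of the same length. By role, the core is in 3 of 4 IFIT genes, 2 of 4 OAS genes and 2 of 3 sensors with a window, and in 1 of 4 transcription factors and 1 of 4 antigen presentation genes. In the 4 promoters shown, the matches begin at positions from -130 to -39 relative to the start. The GAS element, TTCNNNGAA, which reads the same on the opposite strand, is in 6 member windows (19.4%), against 7.85% of measured genes. These are matches of letters and say nothing of binding in these cells.

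The libraries differ in depth and in how their reads relate. Whole read numbers recovered from the TPM values came to 1651831 in Osr2 cells with SB431542, 14434042 in Osr2 cells without it, 13351717 in control cells with it and 18272375 in control cells without it. Mitochondrial genes held 15.1%, 2.42%, 0.694% and 1.74% of these reads, in the same order, so the Osr2 library with SB431542 stands apart by depth and by mitochondrial share. In this library 13 members had fewer than 10 reads and Ifi44 had none, which allows up to 3 reads, or 1.82 RPM (reads scaled to the size of the library). Among 16677 entries with reads in Osr2 cells and 18065 in control cells, the untreated column always held at least as many reads as its treated counterpart. The treated reads came to 11.4% of the untreated column in Osr2 cells and 73.1% in control cells, so the treated reads may be contained in the untreated columns. Values are therefore also given after the treated reads are subtracted from the untreated column, which leaves 4 sets of reads. These do not overlap if the treated reads are indeed contained, and since only numbers of reads are known, this was not tested. TPM levels shifted for genes in general as well, with factors of 0.121, 0.575 and 1.38 relative to the control library without SB431542. The TPM of the entries used summed to 96038 and 270168 in Osr2 cells with and without SB431542. In control cells the sums were 452145 and 345864 with and without it. TPM as deposited is thus not on an equal footing between libraries, and what lies behind the shift was not tested. Differences are therefore of log2(TPM + 1) after each library is set to the median gene, and a gene is called higher or lower at a size of at least 1. This scale understates the change of low genes, and folds compare read numbers on the same footing, without a pseudocount and with exact 95% binomial intervals.

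Fibroblast identity also differed between the libraries. As deposited, the 12 fibroblast markers summed to 462 TPM in Osr2 cells with SB431542 and 9295 TPM in Osr2 cells without it. In control cells the sums were 1162 TPM with it and 1454 TPM without it. Relative to the median gene the sums were 3824, 16175, 844 and 1454, in the same order, so the place of the Osr2 library with SB431542 changed with the scale. S100a4 and Lum were at 0 in Osr2 cells with SB431542. All 11 measured fibroblast markers were higher in Osr2 cells than in control cells without SB431542, and all 11 were lower in Osr2 cells with SB431542 than without it. Both held relative to the median gene, where 16.6% and 26.7% of all genes were called that way, and as deposited (7.78% and 64.1%). With SB431542, 4 were higher and 2 were lower in Osr2 than in control cells relative to the median gene, against 19.9% and 27.9% of all genes. As deposited none was higher and 8 were lower, against 0.348% and 88.1%. The 14 macrophage and leukocyte markers summed to 16.9, 52.5, 24.8 and 18.6 TPM in the same order of libraries, with Siglech and Cd3e at 0 throughout. Of the 9 measured, 7 were higher and none was lower in Osr2 than in control cells without SB431542 relative to the median gene. Of all genes, 16.6% and 11.4% were. With SB431542, 4 were higher and 1 was lower, against 19.9% and 27.9% of all genes. The 5 endothelial markers summed to 0.444, 5.08, 14.5 and 9.26 TPM as deposited, with Cdh5 and Emcn at 0 throughout. Relative to the median gene these sums were 3.68, 8.84, 10.5 and 9.26. The part of these cell types and of depth in the results below was not tested. In bulk samples, fewer cells of a type and less RNA per cell cannot be told apart.

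Transcripts of the members were found in all 4 libraries, except those of Ifi44 in Osr2 cells with SB431542, and most members were at a few TPM. Bst2, which encodes tetherin, a protein that holds budding virus at the cell surface, was the most abundant member in the 3 deeper libraries. It stood at 55.6 TPM in Osr2 cells with SB431542 and 178 TPM in Osr2 cells without it, against 244 and 209 TPM in control cells with and without SB431542. Isg15, a ubiquitin-like protein attached to viral and cellular proteins, had 8.67 and 67.3 TPM in Osr2 cells with and without SB431542, against 113 and 106 TPM in control cells with and without it. At the low end, the median member had 0.787 and 4.67 TPM in Osr2 cells with and without SB431542, against 8.83 and 6.60 TPM in control cells. In read numbers the members took 1725 and 1639 RPM in Osr2 cells with and without SB431542, against 1344 and 1507 in control cells with and without it. Ifit1 alone supplied 956 of the 2849 member reads in Osr2 cells with SB431542. Without Ifit1 the members took 1146 and 1536 RPM in Osr2 cells with and without SB431542, against 1293 and 1435 in control cells with and without it, so that this library then stood lowest. Across the 4 libraries, 35 of 39 members spanned at least 1 in log2(TPM + 1) as deposited, and 17 did so once each library was set to the median gene.

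**Figure D1:**
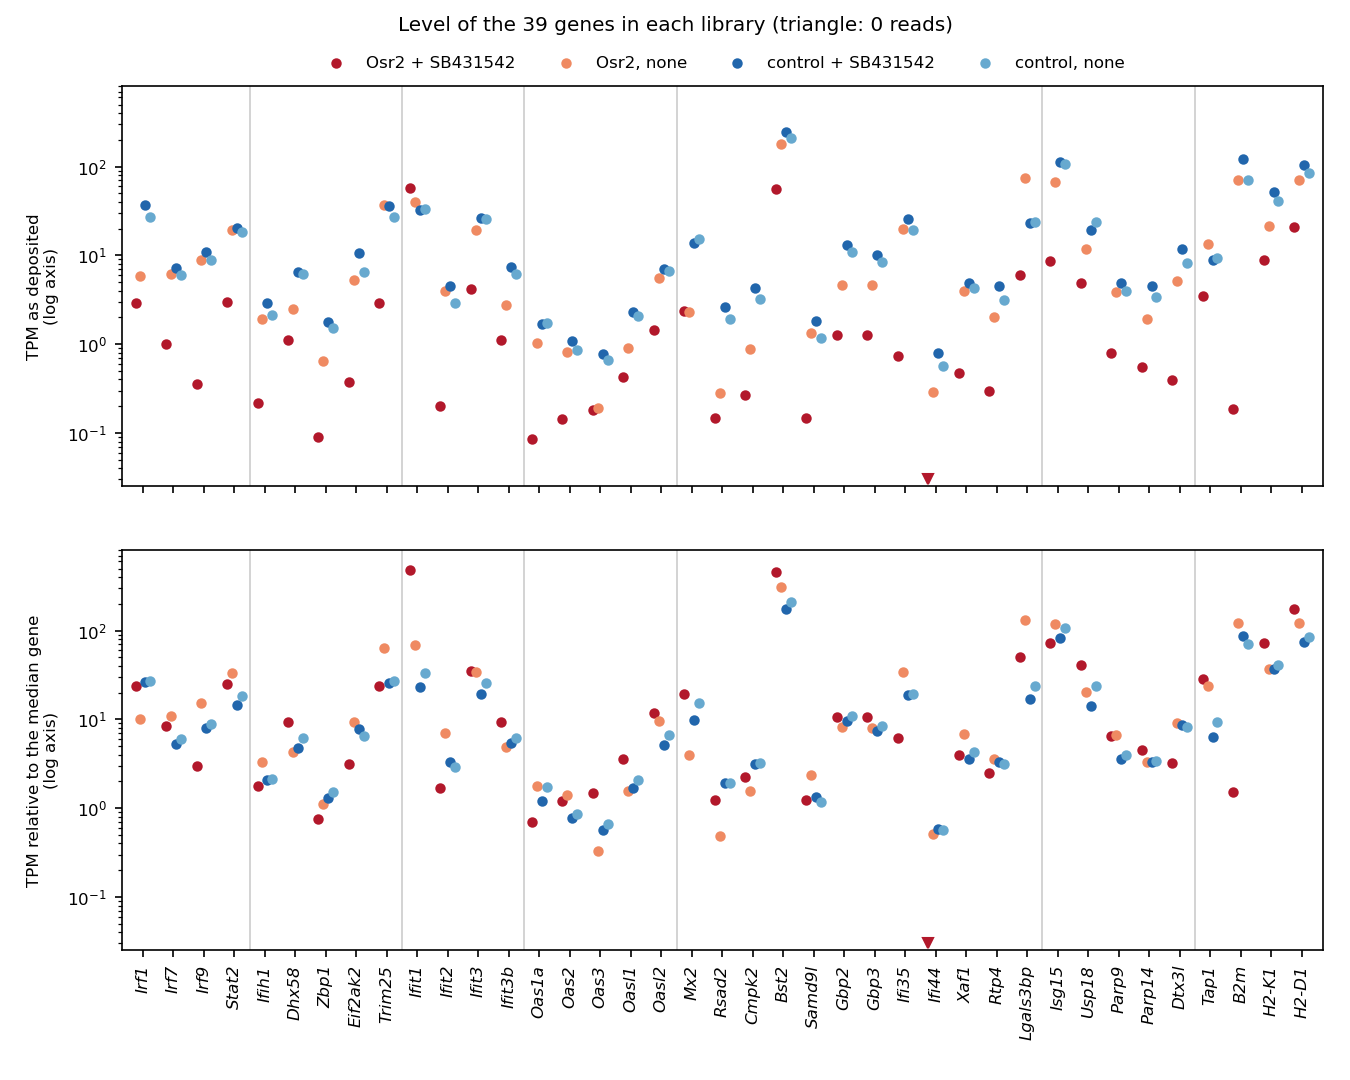
Level of each of the 39 genes, ordered by role with thin lines between roles, in Osr2 and control cells with and without SB431542 (1 library each, log axes). The upper panel is TPM as deposited and the lower panel TPM relative to the median gene. Ifit1 stands at 57.5 TPM and B2m at 0.186 TPM in Osr2 cells with SB431542, far apart on both scales.

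Interferon transcripts themselves were barely detected. Of 20 type I, II and III interferon genes, between 17 and 19 were at 0 in each library. Ifnb1, which encodes interferon beta, had no reads in either Osr2 library, against 8 reads in each control library, or 1.34 and 0.732 TPM in control cells with and without SB431542. The Osr2 library with SB431542 held 1651831 reads, against 13351717 in control cells with it, so its lack of Ifnb1 reads does not show a lower level. Ifna13 had 2 reads in each Osr2 library, against 15 and 23 reads in control cells with and without SB431542. Relative to the median gene, Ifna13 in Osr2 against control cells differed by 0.66 with SB431542 and by -1.17 without it. Since treated reads may be contained in untreated ones, the same numbers in both columns of a cell type are not a repeat measurement.

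The receptor and kinase genes were readily detected. Ifnar1, a subunit of the type I interferon receptor, had 1.96 and 12.0 TPM in Osr2 cells with and without SB431542, against 17.6 and 12.4 TPM in control cells with and without it. Of 9 measured receptor and kinase genes, 5 were higher and none was lower in Osr2 than in control cells with SB431542, against 19.9% and 27.9% of all measured genes. On TPM as deposited none of the 9 was higher and all 9 were lower, against 0.348% and 88.1% of all genes. Without SB431542, 2 were higher and none was lower, against 16.6% and 11.4% of all genes. Ifnar2, the other receptor subunit, differed by 1.74 in log2 with SB431542 relative to the median gene and by -1.56 on TPM as deposited.

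Osr2 cells without SB431542 were set against control cells without it to ask what Osr2 does in reprogramming cells that receive no inhibitor. Of the 37 measured members, 5 were higher and 2 were lower in Osr2 cells, or 13.5% and 5.41%, while 16.6% of all measured genes were higher and 11.4% were lower. The median member differed by 0.40 and the median of all genes by -0.02. On TPM as deposited 1 member was higher and 6 were lower, against 7.78% and 30.6% of all genes, with a median member of -0.26. After read subtraction 5 were higher and 5 were lower, against 17.4% and 12% of all genes, with a median member of -0.10. Relative to the median gene, members were thus called no more often than genes in general, and the sign of their median changed with the scale.

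Lgals3bp, a secreted galectin-binding glycoprotein, had the largest difference of the members relative to the median gene. It stood at 74.9 TPM in Osr2 cells and 23.5 TPM in control cells, a difference of 2.42 in log2 and a ratio of 5.55 (95% interval 5.16 to 5.97). It was higher on all 3 scales, by 1.63 as deposited and 1.60 after subtraction. Mx2 and Irf1 differed by more as deposited (-2.31 and -2.05). After subtraction Mx2, B2m and Irf1 did so (-3.23, 2.56 and -1.68). Trim25, the ubiquitin ligase that acts in RIG-I signalling, had 37.03 TPM in Osr2 cells and 27.2 TPM in control cells, a difference of 1.22 relative to the median gene and 0.43 as deposited. Tap1, a subunit of the peptide transporter that feeds MHC class I, had 13.5 TPM in Osr2 cells and 9.42 TPM in control cells, with differences of 1.24 relative to the median gene and 0.25 after subtraction. Ifit2, an IFIT protein that binds RNA, had 4.01 TPM in Osr2 cells and 2.93 TPM in control cells, and differed by 1.02 relative to the median gene and by 1.5002 after subtraction.

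Ifit1, which binds viral RNA lacking the host cap methylation, had 39.8 TPM in Osr2 cells and 33.7 TPM in control cells. It was 2.06-fold higher relative to the median gene (95% interval 1.91 to 2.22), a difference of 1.02. Its direction turned after read subtraction, to -1.27. The treated Osr2 column holds 956 reads of Ifit1 and the untreated one 1484, a share of 64.4%, while the median over 9789 entries with at least 100 reads in this column was 8.08%, and 71 of these entries were at or above the share of Ifit1.

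The members lower in Osr2 cells without SB431542 were Mx2 and Irf1. Mx2, a gene of the dynamin-like Mx GTPase family, had 2.29 TPM in Osr2 cells and 15.3 TPM in control cells. It was 3.83-fold lower in Osr2 cells (95% interval 3.15 to 4.70), a difference of -1.71. After subtraction the difference was -3.23. Irf1, a transcription factor of interferon-responsive and antigen presentation genes, had 5.84 TPM in Osr2 cells and 27.4 TPM in control cells, 2.69-fold lower (95% interval 2.39 to 3.04) and a difference of -1.35. Both genes were lower on all 3 scales. Just short of the size rule was Rsad2, the viperin gene, with 0.280 TPM in Osr2 cells and 1.90 TPM in control cells and a difference of -0.96. Without the pseudocount Rsad2 was 3.90-fold lower (95% interval 2.34 to 6.92), a fold as large as that of Mx2, on 17 and 120 reads. Its neighbour Cmpk2, a nucleotide kinase transcribed the opposite way from the same stretch of chromosome 12, had 0.890 and 3.20 TPM in Osr2 and control cells. The difference of Cmpk2 was -0.72, and it was 2.06-fold lower without the pseudocount (95% interval 1.51 to 2.86).

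**Figure D2:**
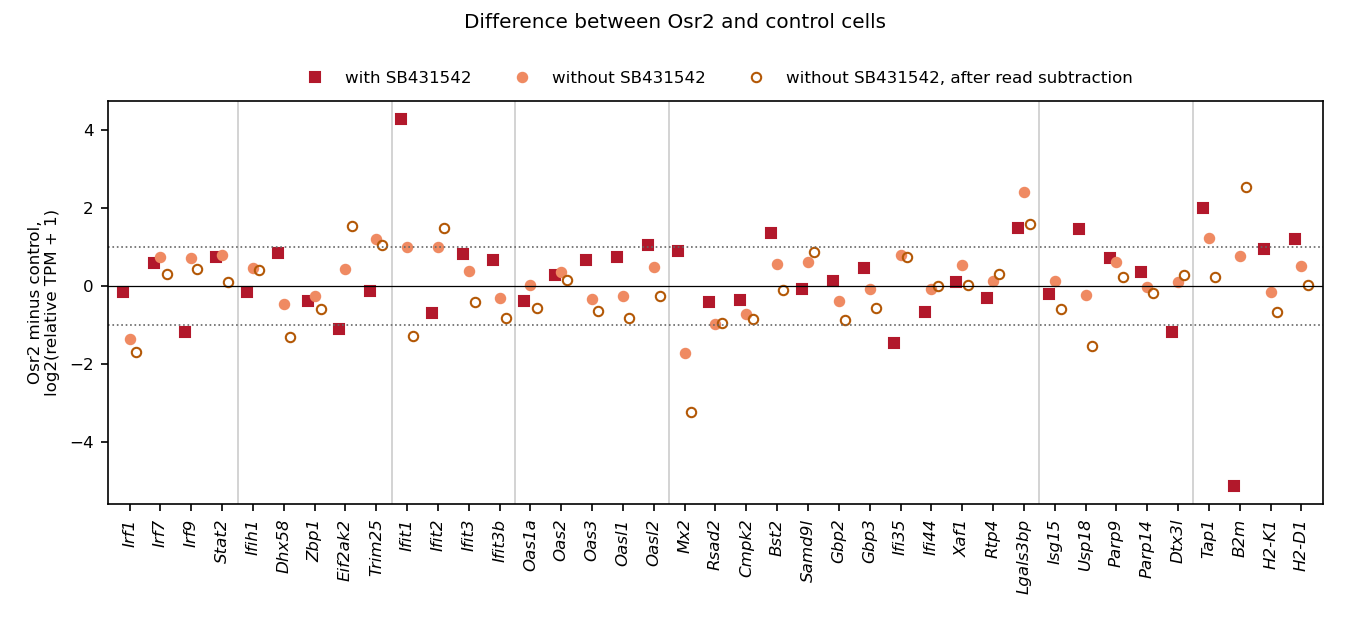
Difference between Osr2 and control cells in log2(TPM + 1) relative to the median gene for each of the 39 genes, with SB431542 (squares), without it (filled circles) and without it after read subtraction (open circles). Dotted lines mark a size of 1, and each point rests on 1 library per group. Ifit1 lies at 4.29 with SB431542, 1.02 without it and -1.27 without it after subtraction.

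With SB431542, the members of Osr2 and control cells were further apart, and so were genes in general. Relative to the median gene 7 members were higher and 5 were lower in Osr2 cells, or 18.9% and 13.5%, against 19.9% and 27.9% of all measured genes. The median member differed by 0.30 and the median gene by -0.21. On TPM as deposited none was higher and 35 were lower, against 0.348% and 88.1% of all genes, and the median member differed by -2.06. After read subtraction, which here changes only the scaling, 6 were higher and 5 were lower, against 18.7% and 27.5% of all genes. Since 13 members had fewer than 10 reads in the Osr2 library with SB431542, 3 were lower once at least 10 reads were required in both libraries, a rule under which 14.4% of genes were lower.

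Ifit1 had the largest difference upward among the members in this comparison. It had 956 reads in Osr2 cells with SB431542 and 680 reads in control cells with SB431542, although the Osr2 library was much smaller. In TPM this was 57.5 in Osr2 cells and 32.2 in control cells, so Ifit1 was the only member higher in Osr2 cells as deposited, by 0.82. Relative to the median gene it was 20.4-fold higher (95% interval 18.4 to 22.5), a difference of 4.29 that ranked 44 from the top among 13509 genes. The other IFIT genes, which lie beside it on chromosome 19, were not called relative to the median gene. Ifit2 had 0.203 TPM in Osr2 cells and 4.55 TPM in control cells, a difference of -0.68. Ifit3 had 4.21 TPM in Osr2 cells and 26.7 TPM in control cells, a difference of 0.82. Ifit3b had 1.12 TPM in Osr2 cells and 7.49 TPM in control cells, a difference of 0.67. Ifit3 and Ifit3b are near-identical copies, so the split of reads between them is uncertain.

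B2m, the light chain that every MHC class I molecule needs, went the other way. It had 1 read in Osr2 cells with SB431542, or 0.186 TPM, against 822 reads or 120 TPM in control cells with SB431542. Relative to the median gene it was 56.7-fold lower, with a 95% interval of 10.2 to 2243 that reflects the lone read. The class I heavy chains did not follow. H2-D1 had 21.01 TPM in Osr2 cells and 103 TPM in control cells, a difference of 1.20 relative to the median gene and -2.24 as deposited. H2-K1 had 8.76 TPM in Osr2 cells and 51.3 TPM in control cells, a difference of 0.94 relative to the median gene. Reads of these related heavy-chain genes may be divided between them by the counting. Tap1 had 3.47 TPM in Osr2 cells and 8.83 TPM in control cells, 4.49-fold higher relative to the median gene (95% interval 3.63 to 5.53).

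The other members higher in Osr2 cells with SB431542 were Lgals3bp at 1.503, Usp18 at 1.47, Bst2 at 1.38 and Oasl2 at 1.07. Usp18, the protease that removes ISG15 and damps receptor signalling, had 4.93 TPM in Osr2 cells and 19.4 TPM in control cells, 2.91-fold higher relative to the median gene (95% interval 2.28 to 3.67). As deposited, all 4 were lower in Osr2 cells, so their direction rests on the scaling. The other lower members were Ifi35, Irf9, Dtx3l and Eif2ak2, each with few reads in the Osr2 library. Irf9, the DNA-binding subunit of the ISRE complex, had 0.356 TPM in Osr2 cells and 10.9 TPM in control cells, 2.69-fold lower (95% interval 1.52 to 5.23). Eif2ak2, the PKR kinase that stops translation on sensing double-stranded RNA, had 0.375 TPM in Osr2 cells and 10.7 TPM in control cells, 2.51-fold lower (95% interval 1.42 to 4.89).

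SB431542 was set against no inhibitor in Osr2 cells to ask what blocking TGF-β receptor kinases changes there. On the columns as deposited, relative to the median gene, 3 members were higher and 8 were lower with SB431542, against 16.5% and 26.7% of all genes. The median member differed by -0.02 and the median of all genes by -0.16. On TPM as deposited none was higher and 25 were lower, against 0.118% and 64.1% of all genes, and the largest difference of any measured gene was 1.15. If treated reads are contained in the untreated column, a gene could be called higher there only with nearly all its untreated reads shared. The lack of higher members as deposited therefore tells little about SB431542. After read subtraction 6 were higher and 8 were lower, against 18.9% and 26.8% of all genes. Relative to the median gene and after subtraction, members were thus called no more often than genes in general.

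Ifit1 was higher by the most among the members with SB431542 in Osr2 cells, with 579 RPM in cells with it, against 41.3 RPM left in cells without it. That was 17.8-fold higher relative to the median gene after subtraction (95% interval 16.0 to 19.9), and 2.76 in log2 on the columns as they stand. Mx2 was 8.29-fold higher (95% interval 5.64 to 12.1), with 53 reads in cells with SB431542 and 63 reads left in cells without it. Irf1 was 2.79-fold higher (95% interval 2.12 to 3.64), with 72 reads in cells with SB431542 and 254 reads left in cells without it. Mx2 and Irf1 were thus the members lower in untreated Osr2 than in untreated control cells, and both were higher with SB431542. These comparisons share the untreated Osr2 library. Dhx58, H2-K1 and Usp18 were called only after subtraction, at 1.11, 1.12 and 1.14.

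The lower members with SB431542 in Osr2 cells included B2m at -5.60, Ifi35 at -2.31 and Irf9 at -2.04. B2m had 1 read with SB431542 and 848 reads left without it, 86.1-fold lower with a 95% interval of 15.4 to 3405. Of 9789 entries with at least 100 reads in the untreated Osr2 column, 309 had a treated share as low as that of B2m. Irf9 was 5.51-fold lower (95% interval 3.13 to 10.7). Ifit2, Trim25, Lgals3bp, Eif2ak2 and Dtx3l differed by between -1.57 and -1.24. Trim25 and Lgals3bp had 37.03 and 74.9 TPM in Osr2 cells without SB431542 and were each among the members called higher there against control cells. Dtx3l, a ubiquitin ligase that works with Parp9, overlaps Parp9 on the opposite strand on chromosome 16. Since the strand setting of the counting is not given in the sources used here, reads of this pair cannot be assigned with certainty.

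In control cells the treated reads equal 73.1% of the untreated column, and over all genes the differences relative to the median gene ran from -3.60 to 0.39. No member was higher or lower with SB431542, against 0% and 0.577% of all genes. The same held on TPM as deposited, against 0% and 0.341%. If the treated reads are contained in the untreated column, no gene could be called higher on either scale. The lack of higher members on these columns therefore tells nothing about SB431542. The median member differed by -0.15. After read subtraction 2 members were higher and 7 were lower with SB431542, against 9.99% and 6.38% of all genes, and the median member differed by -0.48 while the median gene differed by 0.11. Members called lower thus made up 18.9% of those measured, a larger share than among all genes.

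The lower members in SB431542-treated control cells after subtraction were Usp18 at -1.81, Mx2 at -1.52, Ifit1 at -1.39, Tap1 at -1.35, Lgals3bp at -1.26, Ifit3 at -1.10 and Isg15 at -1.05. Usp18 had 32.1 RPM in control cells with SB431542, against 110 RPM left in control cells without it. That was 3.71-fold lower relative to the median gene (95% interval 3.26 to 4.22). Mx2 was 3.07-fold lower (95% interval 2.67 to 3.53), with 29.4 RPM with SB431542 and 83.5 left without it. Isg15 was 2.09-fold lower (95% interval 1.86 to 2.35), with 51.0 RPM with SB431542 and 98.6 left without it. The higher members were B2m, with 61.6 RPM with SB431542 and 13.4 left without it, and Eif2ak2, with 32.7 and 9.55.

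Several members therefore had opposite differences in Osr2 and control cells after subtraction. The SB431542 differences of the 37 members ran against each other in the 2 kinds of cell, with a Pearson r of -0.65 and a Spearman rho of -0.41. Without Ifit1 and B2m r was -0.42 and rho was -0.31. Over all 13509 measured genes r was -0.28 and rho was -0.32, and the share of genes with opposite signs was 62.2% of members and 61.5% of all genes. These are descriptions across genes, which are not independent, and the 4 sets of reads are separate only if the treated reads are contained in the untreated columns. In the 4 sets, mitochondrial genes held 15.1% of reads in Osr2 cells with SB431542, 0.783% left in Osr2 cells without it, 0.694% in control cells with it and 4.57% left in control cells without it. The sets with the most Ifit1 and the least B2m were those with the most mitochondrial reads, namely Osr2 cells with SB431542 and the reads left in control cells without it, and these sets were also the smallest, at 1651831 and 4920658 reads. The part of depth and mitochondrial share in the Ifit1 and B2m differences was not tested.

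**Figure D3:**
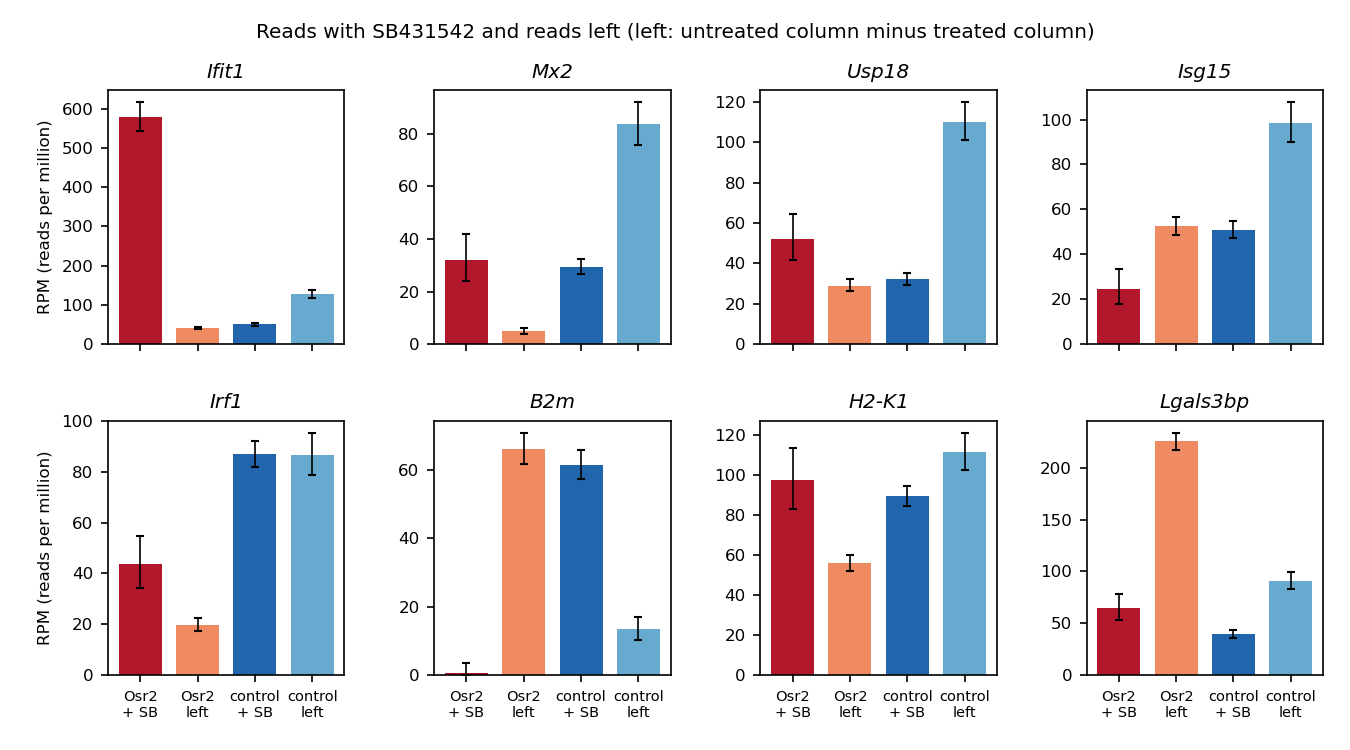
RPM of 8 members in 4 sets of reads: Osr2 cells with SB431542, the reads left in untreated Osr2 cells after the treated reads are subtracted, control cells with SB431542, and the reads left in untreated control cells. Bars start at 0 and lines are exact 95% Poisson intervals for counting error. Ifit1 is at 579 and 41.3 in the Osr2 sets and at 50.9 and 127 in the control sets, while B2m is at 0.605 and 66.3 in the Osr2 sets and at 61.6 and 13.4 in the control sets.

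**Figure D4:**
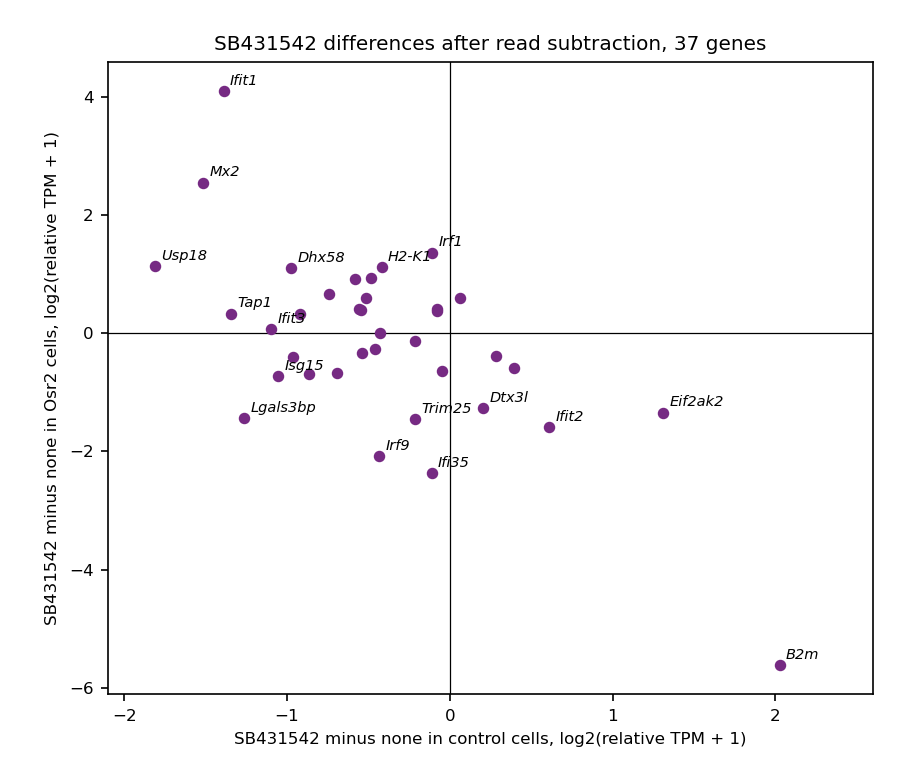
Difference between cells with and without SB431542 after read subtraction, in log2(TPM + 1) relative to the median gene, in Osr2 cells (vertical) against control cells (horizontal) for 37 members. Members with a size of at least 1 on either axis are named. Ifit1, Mx2 and Usp18 lie at the upper left and B2m and Eif2ak2 at the lower right.

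Among the remaining members, most differences fell short of the size rule or rested on few reads. Stat2, the transactivating subunit of the ISRE complex, had 3.02 and 19.1 TPM in Osr2 cells with and without SB431542, against 20.1 and 18.5 TPM in control cells with and without it. Irf7, which drives interferon alpha genes, had 1.02 and 6.21 TPM in Osr2 cells with and without SB431542, against 7.27 and 6.05 TPM in control cells. Neither was called in any comparison relative to the median gene. The sensor Ifih1 (MDA5) had 0.215 and 1.92 TPM in Osr2 cells with and without SB431542, against 2.88 and 2.13 TPM in control cells, and Zbp1, a sensor of Z-form nucleic acid, stayed below 2 TPM throughout. These were not called relative to the median gene either.

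The OAS genes, of which Oasl1 and Oasl2 encode OAS-like proteins, belong to the family whose enzymes make the messenger that activates RNase L. Apart from Oasl2, they were below the median member in every library. The 5 together had 2.27 and 8.48 TPM in Osr2 cells with and without SB431542, against 12.9 and 11.9 TPM in control cells with and without it. Relative to the median gene these sums were 18.8 and 14.8 in Osr2 cells, against 9.37 and 11.9 in control cells. Oasl2 was the most abundant of them in every library, at 1.43 and 5.55 TPM in Osr2 cells with and without SB431542, against 7.07 and 6.60 TPM in control cells. Of the 4 measured OAS genes, Oasl2 with SB431542 was the only call in the 4 comparisons relative to the median gene, and Oas1a, Oas2 and Oasl1 differed by sizes up to 0.83. Reads of Oas1a may be shared with its paralogs.

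The guanylate-binding proteins Gbp2 and Gbp3 tracked the median gene. Gbp2 had 1.27 and 4.67 TPM in Osr2 cells with and without SB431542, against 13.2 and 10.9 TPM in control cells with and without it, with differences between -0.38 and 0.34. Xaf1, Rtp4, Samd9l, Parp9 and Parp14 were likewise not called relative to the median gene in any of the 4 comparisons. Samd9l, an antiviral factor, was below 2 TPM in every library.

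Genes of the pathway outside the member list varied as widely. Of 46 measured other interferon-stimulated genes, 12 were higher and 5 were lower in Osr2 than in control cells without SB431542, against 16.6% and 11.4% of all genes. With SB431542 6 were higher and 12 were lower, against 19.9% and 27.9% of all genes. In the deposited TPM 5 were higher and 9 were lower without SB431542, against 7.78% and 30.6% of all genes. With it none was higher and 43 were lower, against 0.348% and 88.1%. Cxcl10, a chemokine that attracts T cells, had 1.21 and 0.823 TPM in Osr2 cells with and without SB431542, against 24.9 and 21.4 TPM in control cells with and without it. It differed by -3.21 without SB431542, and by -0.79 with it. Ccl5 had 0 and 0.223 TPM in Osr2 cells with and without SB431542, against 3.15 and 2.00 TPM in control cells. Mx1 stayed below 1 TPM in every library, whereas the member Mx2 reached 15.3 TPM.

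Of 14 measured sensing and signalling genes, 2 were higher and 1 was lower in Osr2 than in control cells without SB431542, against 16.6% and 11.4% of all genes, and 5 were higher and 2 were lower with it, against 19.9% and 27.9%. As deposited 1 was higher and 4 were lower without SB431542, against 7.78% and 30.6% of all genes. None was higher and 11 were lower with it, against 0.348% and 88.1%. Ddx58, which encodes RIG-I, had 0.793 and 9.56 TPM in Osr2 cells with and without SB431542, against 13.7 and 10.8 TPM in control cells with and without it. Mavs had 1.19 and 9.25 TPM in Osr2 cells with and without SB431542, against 33.8 and 21.8 TPM in control cells. Of 9 measured negative regulators, 2 were higher and none was lower without SB431542, and 2 were higher and 3 were lower with it, against the same shares of all genes. As deposited none was higher and 1 was lower without SB431542, against 7.78% and 30.6% of all genes. With it none was higher and 6 were lower, against 0.348% and 88.1%. Socs1, a feedback inhibitor of JAK signalling, had 2.20 and 4.24 TPM in Osr2 cells with and without SB431542, against 3.46 and 3.92 TPM in control cells, and differed by 2.45 with SB431542 relative to the median gene but by -0.48 as deposited.

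Of 16 measured other antigen presentation genes, 7 were higher and 2 were lower in Osr2 than in control cells without SB431542, against 16.6% and 11.4% of all genes, and 1 was higher and 2 were lower with it, against 19.9% and 27.9%. On TPM as deposited 1 was higher and 2 were lower without SB431542, against 7.78% and 30.6% of all genes. All 16 were lower with it, against 88.1%. With SB431542 against none in Osr2 cells, 2 were higher and 7 were lower relative to the median gene, against 16.5% and 26.7% of all genes. As deposited none was higher and 13 were lower in that comparison, against 0.118% and 64.1%. Tap2, the partner of Tap1 in the transporter, had 1.06 and 8.77 TPM in Osr2 cells with and without SB431542, against 5.73 and 5.86 TPM in control cells with and without it, and was called higher without SB431542 at 1.25. The immunoproteasome subunits Psmb8 and Psmb9 stayed below 2 TPM in every library, and neither was called relative to the median gene. Nlrc5, the transactivator of class I genes, had 0.376 and 1.36 TPM in Osr2 cells with and without SB431542, against 2.88 and 2.42 TPM in control cells.

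Members with and without the ISRE core in their window overlapped in their differences. The 13 measured members with a match had medians of 0.40 without SB431542 and 0.12 with it in Osr2 against control cells, and the 16 measured members with a window and no match had medians of 0.59 and 0.02. After read subtraction the medians without SB431542 were -0.55 with a match and 0.26 with no match. For SB431542 against none in Osr2 cells, relative to the median gene, the medians were 0.04 with a match and -0.46 with no match, and 2 of 13 and 6 of 16 were lower. Ifit1 and B2m, at the opposite ends of the comparison with SB431542, both hold the core in their window. For the difference of the SB431542 differences, Osr2 cells minus control cells, the median member was 0.11 and members ranged from -5.90 for B2m to 3.27 for Ifit1. On that value 7 members were higher and 7 were lower, against 18.1% and 27.7% of all genes, whose median was -0.22. After subtraction 13 were higher and 7 were lower, against 22.7% and 35.1% of all genes, and as deposited none was higher and 27 were lower, against 0.296% and 75.3%. None of these has a test with 1 library per group.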

How the data were processed

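The authors mapped reads with STAR 2.7.3a to GRCm38.p6, counted them with featureCounts 2.0.0 and deposited TPM per gene, per the series design text and the submitters' processing notes, where an Ensembl annotation of release 75 is named. Cells, poly(A) selection, RNA extraction with ISOGEN and the directional kit are per the labels' protocols. Of 27304 entries, 26 with names turned into dates and 469 sharing 140 symbols were left out. A second table, with 4 columns matching no sample here, was not used.

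Whole reads were recovered from exact ratios of the 4 TPM columns and the union exon lengths of GENCODE M21. All 18787 entries above 0 came out whole within 0.001, and 18113 of 18121 lengths matched. The recovery was tested on simulated data. To set libraries to the median gene, each was scaled by the median of its gene-wise ratios to the untreated control library, taken over 7867 genes averaging 5 TPM or more. Differences are of log2(TPM + 1), with no test at 1 library per group, and a size of at least 1 counts as called among genes of at least 1 TPM in at least 1 library. Intervals on ratios are exact binomial and those on RPM exact Poisson, at 95%. Ratios for SB431542 against none use reads left after subtraction. Gene positions follow GENCODE M21, and promoter windows RefSeq. All members could be named, and of other genes those fixed as steps of the pathway. The members, lists, scales and rules were chosen with earlier results of these data known. The alternatives were the values as deposited, RPM, read subtraction, pseudocounts of 0.1 and 5, other filters and a size of 1.5-fold; chosen after seeing the data were a minimum of 10 reads and the fit to 3 libraries. Analyses used Python 3.11.15, numpy 2.4.6, pandas 2.3.3 and scipy 1.17.1.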

Additional observations from a re-analysis of the deposited data

Results flagged for a closer look

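After read subtraction some members were called in opposite directions in paired comparisons, each with 1 library per group, and the difference between the directions was not tested. For SB431542 against none, Ifit1 differed by 4.10 in Osr2 cells and -1.39 in control cells, Mx2 by 2.55 and -1.52, Usp18 by 1.14 and -1.81, Eif2ak2 by -1.34 and 1.31, and B2m by -5.62 and 2.03. For Osr2 against control cells, Ifit1 differed by 4.22 with SB431542 and -1.27 without it, Usp18 by 1.41 and -1.54, Eif2ak2 by -1.12 and 1.54, and B2m by -5.09 and 2.56. Both kinds of comparison use the same 4 sets of reads. Relative to the median gene on the columns as deposited, no member was called in opposite directions. If the treated reads are contained, however, no gene could be called higher with SB431542 in control cells on these columns.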

How the results depend on the processing

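Member counts moved most with the scaling and the size rule, and shares of all genes under the same setting stand beside them. Without SB431542, Osr2 against control cells gave 1 higher and 6 lower with a median of -0.26 on TPM as deposited (7.78% and 30.6% of all genes), and 1 higher and 4 lower on RPM (10.1% and 21.6%). It gave 5 lower with a median of -0.10 after read subtraction (12%), 2 higher with a pseudocount of 5 (9.76%), and 12 higher and 4 lower at a size of 1.5-fold (26.4% and 24.1%). With SB431542 it gave 0 higher and 35 lower with a median of -2.06 as deposited (0.348% and 88.1%), and 2 higher with a median of -0.28 on RPM (9.19%). It gave 2 lower with a pseudocount of 5 (11.3%), 16 higher at 1.5-fold (28.5%), and 3 lower with at least 10 reads in both libraries (14.4%). SB431542 against none in Osr2 cells gave 0 higher and 25 lower with a median of -1.32 as deposited (0.118% and 64.1%), 6 higher after subtraction (18.9%) and 7 higher with a pseudocount of 0.1 (18.9%). It gave 5 lower with a pseudocount of 5 (12.6%), 8 higher and 13 lower at 1.5-fold (25.6% and 37.4%), and 5 lower with at least 10 reads (15.7%). In control cells it gave a median of 0.24 as deposited, 2 higher and 7 lower with a median of -0.48 after subtraction (9.99% and 6.38%), and 1 lower at 1.5-fold (1.84%). The median difference of differences was -1.58 as deposited.

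Single genes reversed under 2 alternatives. After read subtraction, Ifit1 was at -1.27 in Osr2 against control cells without SB431542. As deposited, with SB431542, Oasl2 was at -1.73, Bst2 at -2.11, Lgals3bp at -1.79, Usp18 at -1.78, Tap1 at -1.14, H2-D1 at -2.24, Ifnar2 at -1.56, Irf3 at -1.99 and Socs1 at -0.48. As deposited, with SB431542 against none in Osr2 cells, Irf1 was at -0.81, Irf3 at -1.12 and Socs1 at -0.71. By construction, TPM as deposited keeps the shift of all genes. The minimum of 10 reads and leaving out the Osr2 library with SB431542 were chosen after seeing the data. No paired analysis was possible because each group has 1 library. The 1651831 reads of the Osr2 library with SB431542 limit every comparison that uses it.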
